A study of Mus musculus with 6 samples.

Results

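Plasminogen activation was examined through 6 genes, Plau, Plat, Plaur, Plgrkt, Serpine2 and Serpinb2, out of the 52550 gene models counted in bone marrow-derived macrophages (BMDMs). They were picked by symbol with the comparison of GIT1 CKO and GIT1 CWT BMDMs already known, in which Plau was among the genes with the largest increases, so their differences between the groups are described here without p-values, and counts of calls among them are no support. All 6 had enough counts to enter the fit of 16287 genes. The GIT1 CKO group held 3 libraries of BMDMs from mice in which Cre driven by Lyz2, a gene of the myeloid lineage, deletes floxed Git1. The GIT1 CWT group held 3 libraries of control BMDMs, taken here as the GIT1 fl/fl animals that the study describes as its controls. Git1 encodes a scaffold protein. Both groups were on the C57BL/6 background, were grown in 25 ng/mL M-CSF, which drives macrophage differentiation, over 7 days, and received LPS (bacterial lipopolysaccharide, which activates macrophages) at 100 ng/mL. Donor age, donor sex and the duration of LPS were not given in the sources used here.

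Plasminogen is a circulating zymogen that is cut to plasmin, a protease that dissolves fibrin, degrades matrix and activates some matrix metalloproteinases. Plau encodes the urokinase-type activator, which acts at the cell surface on its receptor, encoded by Plaur, and Plat encodes the tissue-type activator, best known for its action on fibrin. Serpins block both activators, and the Plgrkt protein holds plasminogen on the plasma membrane, where macrophages use plasmin for migration and the clearance of fibrin.

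The start-site regions of Plaur and Serpinb2 are shown because each carries the AP-1 letters TGANTCA, to which Fos and Jun family proteins bind and whose levels are given further on. RefSeq windows (GRCm38.p6) were matched for 4 of the 6 members, Plaur, Plgrkt, Serpine2 and Serpinb2, and the 250 bases before the start are printed 5′ to 3′. Capitals mark AP-1 letters and the TATA box letters TATAAA. The Plaur window is chr7:24462233-24462482 and the Serpinb2 window chr1:107511173-107511422, both on the plus strand.
Plaur: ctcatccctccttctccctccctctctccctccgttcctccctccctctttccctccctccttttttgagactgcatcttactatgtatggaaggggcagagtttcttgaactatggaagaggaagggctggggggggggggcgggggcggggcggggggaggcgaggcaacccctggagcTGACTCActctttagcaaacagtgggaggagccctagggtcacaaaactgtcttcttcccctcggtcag
Serpinb2: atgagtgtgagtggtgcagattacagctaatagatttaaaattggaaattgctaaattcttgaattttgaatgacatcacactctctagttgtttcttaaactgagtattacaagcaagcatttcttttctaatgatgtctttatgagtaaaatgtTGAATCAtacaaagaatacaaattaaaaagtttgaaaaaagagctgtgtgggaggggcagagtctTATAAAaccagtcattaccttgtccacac
The AP-1 match TGACTCA began at position -69 of Plaur and the match TGAATCA at position -94 of Serpinb2, counted from the annotated start, and Serpinb2 also had TATAAA at -29. From a second annotated Serpinb2 start further downstream, the same letters lie at -181 and -116. Among 32851 RefSeq windows of this length, 6.75% held TGANTCA and 12.4% held TATAAA on either strand. The ETS letters AGGAAG occurred on the gene strand of Plaur at -130 and of Serpine2 at -25, and on the opposite strand of Plgrkt at -231, against 29.5% of all windows on either strand. The Plgrkt window (chr19:29361872-29362121) and the Serpine2 window (chr1:79858666-79858915) are on the minus strand. Both lie inside the gene models counted here, which reach 29367390 for Plgrkt and 79861180 for Serpine2, so these starts are not those of the models. The NF-kB motif, present in 1.41% of windows, was in none of the 4. The Serpinb2 window had the lowest GC content, 32.4%, against 59.6% in Plaur, 60% in Plgrkt and 78.8% in Serpine2. These matches are letters in a window and were not tested for binding.

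Total counts ran from 81131281 to 157485640 in GIT1 CKO libraries and from 61895190 to 68083745 in GIT1 CWT libraries. Git1 itself stood at 72.8, 74.5 and 73.8 CPM (counts per 1e+06 counts of the library total, as scaled by TMM in edgeR) in GIT1 CKO BMDMs, against 71.9, 103 and 82.2 CPM in GIT1 CWT BMDMs, and counts over the whole gene do not check a deletion of part of it. Lyz2, the gene that carries the Cre, fell by 1.14 on the log2 scale (adjusted p = 0.0153, edgeR), and loss of an allele and a change of expression cannot be told apart. Transcripts of 4 genes on the Y chromosome (Ddx3y, Eif2s3y, Kdm5d and Uty) summed to 0 to 0.0249 CPM in GIT1 CKO libraries, against 26.5 to 81.5 CPM in GIT1 CWT libraries, and Xist to 1051 to 1111 CPM and 226 to 607 CPM, so each GIT1 CWT library held transcripts typical of both sexes and GIT1 CKO libraries those of females almost alone. Donor sex thus moves with genotype, and its part in the differences was not tested. The libraries also differed in how the deviation of each gene from its mean log level over all libraries followed GC content. Spearman's rho of that deviation with GC content across genes was -0.41 to -0.367 in GIT1 CKO libraries. It was -0.436, 0.685 and 0.226 in GIT1 CWT replicates 1, 2 and 3. In all genes tested, 79 (0.485%) rose and 44 (0.27%) fell at an adjusted p under 0.05 by edgeR's quasi-likelihood test, together 0.755%.

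Plau carried by far the most RNA of the 6 genes in GIT1 CKO BMDMs and stood 2.97-fold above its level in GIT1 CWT BMDMs, while the libraries of the groups overlapped for the genes of its receptor and of the plasminogen receptor and the serpins were at low levels in both. At an adjusted p under 0.05 by edgeR, 1 of the 6 was called, Plau, beside the 0.755% of all genes, and Plau was again the only one past a fold of 1.5 with an unadjusted p under 0.05, which 8.62% of genes passed (6.48% higher, 2.14% lower). These counts follow from the way the members were chosen. All GIT1 CKO libraries lay above all GIT1 CWT libraries for 3 members, Plau, Plat and Serpinb2, as they did for 13.6% of genes tested. For no member did all GIT1 CKO libraries lie below, against 15.1% of genes tested. The 3 separations are no support either, since Plau was picked with its rise known. Plat and Serpinb2 entered the fit on the strength of their GIT1 CKO libraries, so the filter favours this order for them. For Serpinb2 the order hangs on replicate 1 of each group, where GIT1 CKO (0.850 CPM) barely exceeded GIT1 CWT (0.847 CPM). Fold changes are GIT1 CKO over GIT1 CWT throughout.

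**Figure D1:**
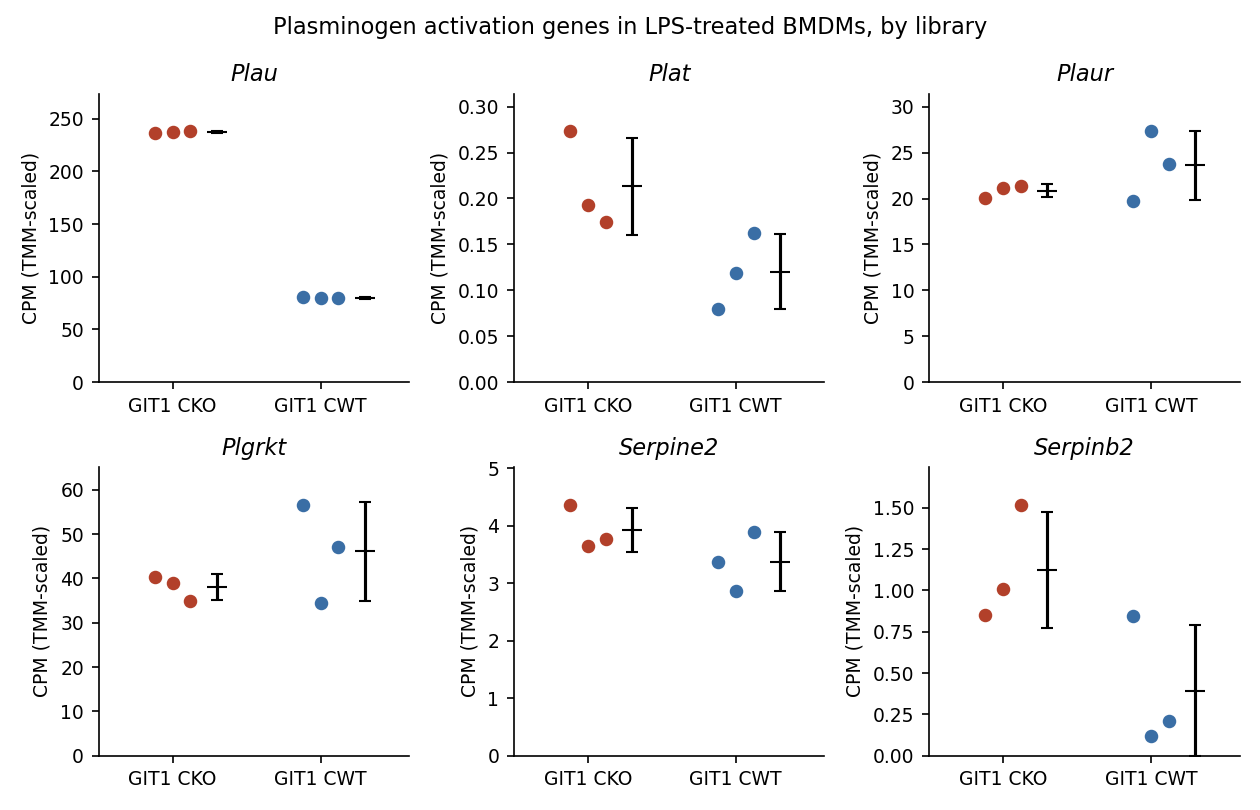
CPM of the 6 members in each library, with a separate vertical axis from 0 for each gene. Points are libraries of GIT1 CKO (red, left) and GIT1 CWT (blue, right) BMDMs, and bars show the mean and SD (n = 3). The 3 Plau points of each group lie almost on one another, at 237 to 238 CPM in GIT1 CKO, against 79.5 to 81.0 CPM in GIT1 CWT, whereas those of Serpinb2 are scattered.

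Among the activators, Plau (ENSMUSG00000021822.3, chromosome 14, 20836660 to 20843385, plus strand) reached 237, 237 and 238 CPM in GIT1 CKO replicates 1, 2 and 3, against 81.0, 79.5 and 79.7 CPM in GIT1 CWT replicates 1, 2 and 3. These rest on 31198, 38215 and 19140 counts in GIT1 CKO and 5071, 5342 and 4924 counts in GIT1 CWT. The groups were far apart and the libraries within each were nearly equal. The means were 237.5 ± 0.761 CPM in GIT1 CKO, against 80.1 ± 0.794 CPM in GIT1 CWT BMDMs (SD, n = 3 each). The log2 fold change was 1.57 (SE 0.0788), or 2.97-fold. In order of level among the genes tested, Plau was number 707 in GIT1 CKO and number 2539 in GIT1 CWT BMDMs.

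Plau agreed more closely between libraries than most genes with at least 20 CPM. Its coefficient of variation was 0.32% in GIT1 CKO and 0.991% in GIT1 CWT BMDMs, against medians of 4.06% and 14.9% over these 6696 genes. Of those genes, 0.821% had a smaller value in GIT1 CKO and 0.493% in GIT1 CWT. Plau was picked with its rise known, and a small spread within groups favours a call. This ranking is therefore a description and no support. The GIT1 CWT libraries also differed in their GC trend, as given above, and the part of that trend in the medians was not tested. Counting error alone gives 0.512% to 0.723% per GIT1 CKO library and 1.37% to 1.43% per GIT1 CWT library, so the Plau libraries of each group differed by no more than counting error.

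By size of change, Plau was number 24 of the 79 genes called higher, and number 7 of the 56 of these with a mean log2 CPM of at least 3. The genes next to it in this order were F830016B08Rik at 1.59 and Marco at 1.54 on the log2 scale. The patterns most like that of Plau over the 6 libraries, by the root-mean-square difference of centred log2 CPM (9131 genes compared), were those of Slamf9 (0.106), Uhrf1 (0.124), Marco (0.125), Tfdp2 (0.127) and Emp2 (0.135). The median gene differed from Plau by 0.817. Marco, a scavenger receptor of macrophages, was the most abundant of these, with 111 ± 3.02 CPM in GIT1 CKO, against 38.1 ± 5.26 CPM in GIT1 CWT BMDMs (SD, n = 3 each). Slamf9, a surface receptor of the SLAM family, had 30.6 ± 1.71 CPM in GIT1 CKO, against 11.2 ± 0.672 CPM in GIT1 CWT BMDMs. Uhrf1, which maintains DNA methylation in dividing cells, had 16.6 ± 0.931 CPM in GIT1 CKO, against 6.2 ± 0.341 CPM in GIT1 CWT BMDMs. These genes were picked for the likeness, so it is a description of 6 libraries.

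The tested gene models nearest to Plau on either side were Camk2g, a subunit of the calmodulin-dependent kinase II, 42572 bases away at lower coordinates, and Vcl, which encodes vinculin, 86013 bases away at higher coordinates. Camk2g had 25.6 ± 3.64 CPM in GIT1 CKO, against 35.1 ± 2.33 CPM in GIT1 CWT BMDMs (log2 fold change -0.46, SE 0.135, adjusted p = 0.185, edgeR). Vcl had 32.8 ± 2.06 CPM in GIT1 CKO, against 28.7 ± 1.37 CPM in GIT1 CWT BMDMs (log2 fold change 0.19, SE 0.1, adjusted p = 0.363, edgeR). Neither passed the test. Over all 6 members, 20 gene models within 100000 bases were tested and 0 were called by edgeR. At an unadjusted p under 0.05, 2 of them were higher and 4 lower, DESeq2 called 1 higher and 2 lower, and limma-voom called 0. Of all genes tested, 9.06% were higher and 8.45% lower at that p, DESeq2 called 4.05% higher and 2.75% lower, and limma-voom called 0.577% higher and 0.313% lower.

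Plat (ENSMUSG00000031538.6, chromosome 8, 22757727 to 22782844, plus strand) was close to the limit of detection. It had 36, 31 and 14 counts in GIT1 CKO replicates 1, 2 and 3, against 5, 8 and 10 counts in GIT1 CWT replicates 1, 2 and 3. As levels these were 0.273, 0.193 and 0.174 CPM in GIT1 CKO, against 0.0799, 0.119 and 0.162 CPM in GIT1 CWT. The libraries did not overlap, but the 95% counting interval of GIT1 CKO replicate 3 (0.0953 to 0.292 CPM) contained the values of GIT1 CWT replicates 2 and 3. The log2 fold change was 0.83 (SE 0.51), and Plat entered the fit on the strength of its GIT1 CKO libraries. Plau made up nearly all of the activator RNA in every library.

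Of the receptors, Plaur (ENSMUSG00000046223.10, chromosome 7, 24462484 to 24475968, plus strand), whose start region is printed above, had 20.1, 21.1 and 21.4 CPM in GIT1 CKO replicates 1, 2 and 3. It had 19.8, 27.4 and 23.7 CPM in GIT1 CWT replicates 1, 2 and 3. The lowest Plaur level was in a GIT1 CWT library, and the groups overlapped. The log2 fold change was -0.18 (SE 0.138), within -0.29 and -0.03 when any 1 library was left out. The 2.97-fold higher Plau RNA was thus measured beside a Plaur level of 20.9 ± 0.706 CPM in GIT1 CKO, against 23.6 ± 3.78 CPM in GIT1 CWT BMDMs (SD, n = 3 each).

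Plgrkt (ENSMUSG00000016495.12, chromosome 19, 29348599 to 29367390, minus strand) had 40.4, 39.0 and 34.9 CPM in GIT1 CKO replicates 1, 2 and 3, against 56.7, 34.5 and 47.1 CPM in GIT1 CWT replicates 1, 2 and 3. GIT1 CWT replicate 2 held the lowest level and replicate 1 the highest, so the GIT1 CWT values spanned those of GIT1 CKO. The log2 fold change was -0.28 (SE 0.187), between -0.42 and -0.10 when any 1 library was left out, and -0.50 (SE 0.0814) after removal of the GC trend. The model of Cd274, which encodes PD-L1, begins 65 bases from that of Plgrkt and had a log2 fold change of 0.34 (SE 0.118, adjusted p = 0.222, edgeR).

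The serpins of the group were scarce. Serpine2 (ENSMUSG00000026249.10, chromosome 1, 79794197 to 79861180, minus strand) encodes protease nexin-1, an inhibitor of thrombin and of both activators. It had 4.36, 3.65 and 3.77 CPM in GIT1 CKO replicates 1, 2 and 3, against 3.37, 2.86 and 3.89 CPM in GIT1 CWT replicates 1, 2 and 3. The ranges overlapped, and the log2 fold change was 0.22 (SE 0.181).

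Serpinb2 (ENSMUSG00000062345.10, chromosome 1, 107511423 to 107535478, plus strand) encodes plasminogen activator inhibitor type 2, which in macrophages is largely kept inside the cell. It had 112, 162 and 122 counts in GIT1 CKO replicates 1, 2 and 3, against 53, 8 and 13 counts in GIT1 CWT replicates 1, 2 and 3. As levels these were 0.85, 1.01 and 1.52 CPM in GIT1 CKO, against 0.847, 0.119 and 0.21 CPM in GIT1 CWT. GIT1 CKO replicate 1 and GIT1 CWT replicate 1 were thus nearly equal, with 95% counting intervals of 0.7 to 1.02 CPM and 0.634 to 1.11 CPM, while the other GIT1 CWT libraries were far lower. The log2 fold change was 1.52 (SE 0.71), close to that of Plau in size but with a far larger standard error. It was 2.76 (SE 0.474) without GIT1 CWT replicate 1 and 1.11 without GIT1 CWT replicate 2, so single GIT1 CWT libraries set its size. The Serpinb10 model overlaps that of Serpinb2 and had 8 counts in GIT1 CKO replicate 2, the only library with any.

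**Figure D2:**
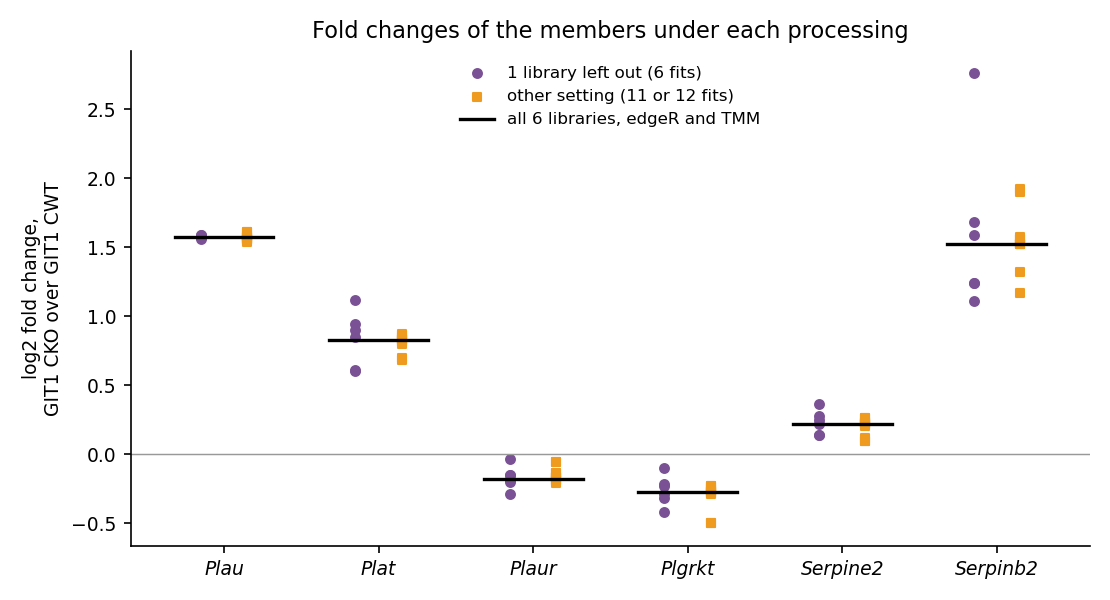
Log2 fold change (GIT1 CKO over GIT1 CWT) of each member under the processings tried: black lines show all 6 libraries with edgeR and TMM, purple circles leave out 1 library each and orange squares change a setting or, for the GC trend with the replicate block, a pair of them. The filter at 1 CPM left out Plat and Serpinb2. Plau stayed between 1.54 and 1.61, whereas Serpinb2 spread between 1.11 and 2.76, and no member changed sign.

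Levels of different genes were compared per kilobase of the longest coding transcript of GENCODE M21. Plau stood at 101 ± 0.322 CPM per kb in GIT1 CKO, against 34.2 ± 0.34 CPM per kb in GIT1 CWT BMDMs (SD, n = 3 each, here and in the values that follow). Plgrkt came next in GIT1 CKO, with 37.3 ± 2.82 CPM per kb, against 45.2 ± 10.9 CPM per kb in GIT1 CWT. In all 3 GIT1 CKO libraries the order was Plau, Plgrkt, Plaur, Serpine2, Serpinb2, Plat. In GIT1 CWT replicates 1 and 3 Plgrkt stood above Plau, and in replicate 2 they were almost equal at 33.9 and 34.0 CPM per kb. Plau and Plgrkt therefore did not differ beyond their spread in GIT1 CWT BMDMs. Plaur followed with 13.9 ± 0.468 CPM per kb in GIT1 CKO, against 15.7 ± 2.51 CPM per kb in GIT1 CWT BMDMs. Serpine2 had 1.78 ± 0.172 CPM per kb in GIT1 CKO, against 1.53 ± 0.232 CPM per kb in GIT1 CWT, and Serpinb2 had 0.564 ± 0.175 CPM per kb in GIT1 CKO, against 0.196 ± 0.199 CPM per kb in GIT1 CWT. Plat was lowest in every library. With the merged length of all exons in place of the coding transcript, Plau was first in all 6 libraries, since the merged Plgrkt model is 3799 bases long and its coding transcript 1020.

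**Figure D3:**
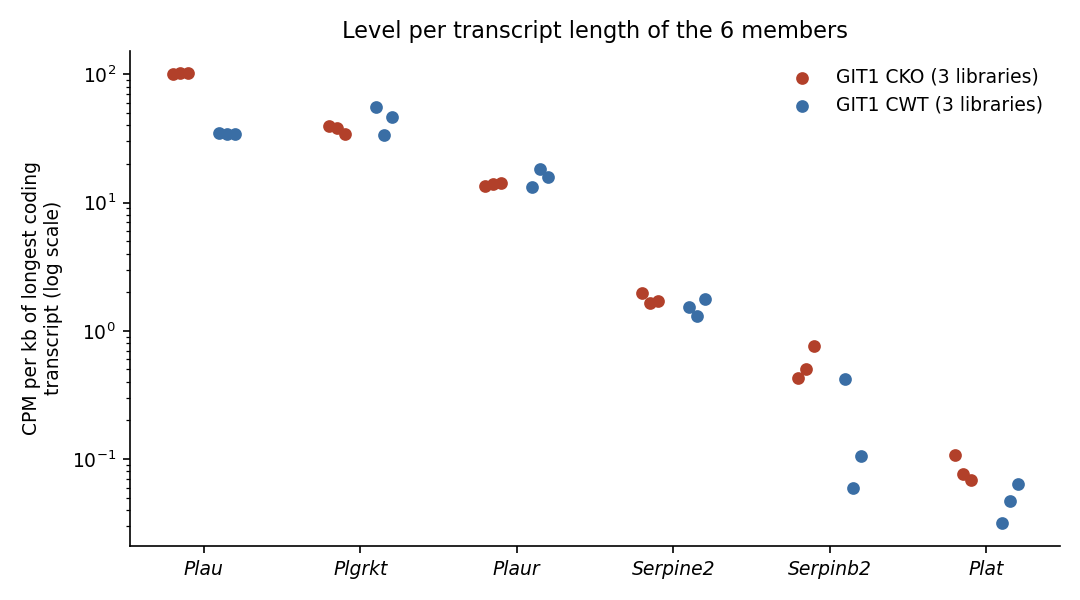
CPM per kb of the longest coding transcript, on a log scale, for the 6 members in each library of GIT1 CKO (red, left) and GIT1 CWT (blue, right) BMDMs. Plau lies above every other gene in GIT1 CKO, at 101 to 102 CPM per kb, and at the level of Plgrkt in GIT1 CWT, while Serpinb2 and Plat lie below 1 CPM per kb.

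Plau over Plaur, per kb of coding transcript, was 7.16 to 7.58 in GIT1 CKO and 1.87 to 2.63 in GIT1 CWT libraries. With merged exon lengths the mean ratios were 12.6 ± 0.399 in GIT1 CKO and 3.82 ± 0.661 in GIT1 CWT BMDMs (SD, n = 3 each). The groups did not overlap, and Plau, not its receptor, carried the difference. These are ratios of RNA and were given no test, since they hold the members.

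The remaining genes of the plasmin system were taken from a list of 42 (43 gene models), of which 31 models were tested. This list was also chosen with earlier results of these data known, so its counts of calls are a description and no support. By edgeR 1 was called higher (Fpr1) and 0 lower, against 0.485% and 0.27% of all genes, and their median log2 fold change was 0.13, against 0.01 over all genes. At an unadjusted p under 0.05, 4 were higher and 2 lower (9.06% and 8.45% of all genes), DESeq2 called 2 higher and 1 lower (4.05% and 2.75% of all genes), and limma-voom called 1 higher and 0 lower. Plg, the gene of plasminogen, had 0 counts in all 6 libraries, which allows up to 0.0186 to 0.0374 CPM per GIT1 CKO library and 0.0447 to 0.0486 CPM per GIT1 CWT library by counting error alone. The only zymogen or contact-phase gene tested, Klkb1 (plasma prekallikrein), lay at 0.171 ± 0.0695 CPM in GIT1 CKO, against 0.106 ± 0.136 CPM in GIT1 CWT BMDMs. Of the 8 listed inhibitors 3 were tested and 0 were called by edgeR, DESeq2 or limma-voom, with 0 at an unadjusted p under 0.05.

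The proteins that bind plasminogen gave 7 tested models, of which edgeR called 0. At an unadjusted p under 0.05, 0 were higher and 1 lower, S100a10, which was named after its values were seen. S100a10 is the partner of annexin A2, and it had 49.5 ± 2.12 CPM in GIT1 CKO, against 62.2 ± 2.29 CPM in GIT1 CWT BMDMs (log2 fold change -0.33, SE 0.092, adjusted p = 0.171 by edgeR and 0.0323 by DESeq2). limma-voom called 0 of the 7. Of all genes tested, 9.06% were higher and 8.45% lower at an unadjusted p under 0.05, and DESeq2 called 4.05% higher and 2.75% lower. Itgam, the integrin alpha chain of Mac-1, is split over 2 overlapping models whose sum was 1939 ± 52.9 CPM in GIT1 CKO, against 1749 ± 137 CPM in GIT1 CWT BMDMs. Lrp1, the receptor that clears complexes of activator and inhibitor, had 1008 ± 37.0 CPM in GIT1 CKO, against 990 ± 166 CPM in GIT1 CWT BMDMs (log2 fold change 0.03, SE 0.131, adjusted p = 0.925, edgeR).

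Fpr1, a formyl peptide receptor and a reported partner of the urokinase receptor, was the called gene of the list. It had 87.7, 85.7 and 83.7 CPM in GIT1 CKO replicates 1, 2 and 3, against 34.0, 25.5 and 35.1 CPM in GIT1 CWT replicates 1, 2 and 3. Fpr1 thus rose beside Plau, by 1.44 on the log2 scale (SE 0.143, adjusted p = 0.0172, edgeR), with no overlap of libraries. The adjusted p was 0.138 without GIT1 CKO replicate 1, 0.143 without GIT1 CKO replicate 2 and 0.128 without GIT1 CWT replicate 3. Its relative Fpr2, named after its values were seen, had 63.6, 66.0 and 65.5 CPM in GIT1 CKO replicates 1, 2 and 3, against 32.9, 7.89 and 18.6 CPM in GIT1 CWT replicates 1, 2 and 3. The GIT1 CWT values of Fpr2 were widely scattered, and it did not pass the test (log2 fold change 1.72, SE 0.465, adjusted p = 0.165 by edgeR and 0.00272 by DESeq2). By edgeR its adjusted p was 0.0285 without GIT1 CWT replicate 1 and 0.0577 to 0.478 when any other library was left out. With the GC trend removed it was 0.048, and 0.119 with a replicate block as well. Within GIT1 CWT, Fpr2 varied far more than Plau did.

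Of the substrates of plasmin and urokinase, 7 of 11 were tested and 0 were called by edgeR, DESeq2 or limma-voom. At an unadjusted p under 0.05, 1 was higher and 0 lower (9.06% and 8.45% of all genes). Mmp9, which encodes gelatinase B and was the most abundant, had 1396 ± 20.4 CPM in GIT1 CKO, against 1037 ± 154 CPM in GIT1 CWT BMDMs (log2 fold change 0.43, SE 0.12, adjusted p = 0.172, edgeR). It had an adjusted p of 0.0154 without GIT1 CWT replicate 2 and of 0.00198 with the GC trend removed. The adjusted p of Mmp9 was 0.107 to 0.506 when any other library was left out. With a replicate block it was 0.343, and 0.0545 with the GC trend removed as well. The fibrinogen genes Fga and Fgg had 0 counts in all libraries.

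The Plau gene is known to respond to an upstream enhancer with ETS and AP-1 sites, and 12 factors of the ETS, AP-1 and NF-kB families were listed. They were listed with earlier results of these data known, so counts of calls among them are a description and no support. By edgeR 2 rose, Fos and Etv5, and 0 fell, against 0.485% and 0.27% of all genes, with a median log2 fold change of 0.10 over the 12. At an unadjusted p under 0.05, 4 were higher and 0 lower (9.06% and 8.45% of all genes), DESeq2 called 3 higher and 0 lower (4.05% and 2.75% of all genes), and limma-voom called 2 higher and 0 lower. Fos, an immediate early gene and a partner of Jun in AP-1, had 80.2, 82.0 and 83.1 CPM in GIT1 CKO replicates 1, 2 and 3, against 45.3, 53.9 and 44.2 CPM in GIT1 CWT replicates 1, 2 and 3. It rose by 0.77 on the log2 scale (SE 0.11, adjusted p = 0.0431, edgeR). Etv5, an ETS factor of the PEA3 family, had 30.9, 30.9 and 34.7 CPM in GIT1 CKO replicates 1, 2 and 3, against 19.4, 20.95 and 20.01 CPM in GIT1 CWT replicates 1, 2 and 3. It rose by 0.68 on the log2 scale (SE 0.101, adjusted p = 0.0473, edgeR). Neither gene overlapped between the groups, but both calls lay near the threshold. For Fos the adjusted p was 0.219, 0.274 and 0.109 without GIT1 CKO replicate 1, 2 or 3, 0.202 without GIT1 CWT replicate 3 and 0.0799 with upper-quartile scaling. For Etv5 it was 0.223, 0.274 and 0.113 without GIT1 CKO replicate 1, 2 or 3, 0.225 without GIT1 CWT replicate 3, 0.0788 with upper-quartile and 0.0521 with RLE scaling. Jund, the most abundant of the 12, had 198.5 ± 4.44 CPM in GIT1 CKO, against 186 ± 38.6 CPM in GIT1 CWT BMDMs (adjusted p = 0.749, edgeR). Over the 12, log2 fold changes ran from -0.20 to 1.37, and 8 lay above 0, as did 8285 of the 16287 genes tested. No Plau sequence was examined, and whether any of these factors acts on Plau in these BMDMs was not tested.

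**Figure D4:**
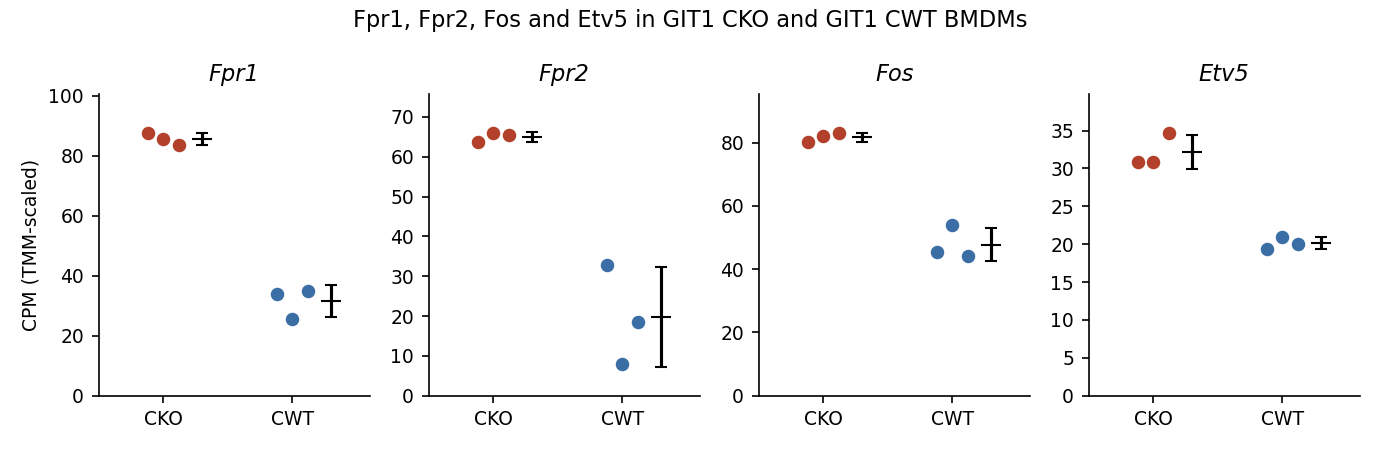
CPM of Fpr1, Fpr2, Fos and Etv5 in each library of GIT1 CKO (red, left) and GIT1 CWT (blue, right) BMDMs, with a separate axis from 0 for each gene and bars for the mean and SD (n = 3). The groups do not overlap for any of the 4 genes, while the GIT1 CWT values of Fpr2 are scattered between 7.89 and 32.9 CPM.

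Markers of other cells that could express the members were far below those of macrophages. Neutrophil and progenitor markers (9 genes, 0 of them tested) summed to 0.199 to 0.486 CPM in GIT1 CKO, against 0.0745 to 0.351 CPM in GIT1 CWT libraries, with Ly6g and Camp at 0 counts. Fibroblast and stromal markers summed to 39.1 to 42.5 CPM in GIT1 CKO, against 31.7 to 41.3 CPM in GIT1 CWT libraries, and 0 of 7 tested were called by edgeR, with Dcn and Col3a1 higher at an unadjusted p under 0.05 and their libraries not overlapping. Endothelial markers summed to 47.8 to 49.2 CPM in GIT1 CKO, against 47.9 to 59.3 CPM in GIT1 CWT libraries, with 1 of 5 tested, Pecam1, called higher and Cdh5 higher at an unadjusted p under 0.05, while Vwf was lower at that p. Vwf, the most abundant of them, had 25.7 ± 0.356 CPM in GIT1 CKO, against 40.9 ± 6.54 CPM in GIT1 CWT (SD, n = 3 each, adjusted p = 0.0962, edgeR), and Pecam1 had 17.99 ± 0.583 CPM in GIT1 CKO, against 8.38 ± 0.472 CPM in GIT1 CWT (adjusted p = 0.0162, edgeR). Mast cell and basophil markers summed to 0.638 to 1.09 CPM in GIT1 CKO, against 0.356 to 0.551 CPM in GIT1 CWT libraries. Erythroid markers summed to 0.162 to 0.972 CPM in GIT1 CKO, against 0.0639 to 0.113 CPM in GIT1 CWT libraries. Sums of megakaryocyte, B and T cell and dendritic cell markers overlapped. At an unadjusted p under 0.05 by edgeR, Kit (mast cell) was higher and Siglech (dendritic cell) lower. The part of such cells in the Plau difference was not tested. In bulk RNA, fewer cells of a type and less RNA per cell cannot be told apart. Macrophage markers without Lyz2 (9 genes) summed to 15800 to 15930 CPM in GIT1 CKO, against 14870 to 16230 CPM in GIT1 CWT libraries, and edgeR called 0 of them, with Adgre1 and Fcgr1 higher and Csf1r and Mertk lower at an unadjusted p under 0.05. With Lyz2 the sums were 31250 to 32870 CPM in GIT1 CKO, against 46630 to 55750 CPM in GIT1 CWT libraries. For comparison with these marker counts, edgeR called 0.485% of all genes tested higher and 0.27% lower. At an unadjusted p under 0.05, 9.06% were higher and 8.45% lower. All GIT1 CKO libraries lay above all GIT1 CWT libraries for 13.6% of genes tested and below them for 15.1%.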

How the data were processed

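RNA of LPS-treated BMDMs was sequenced in 3 GIT1 CKO and 3 GIT1 CWT samples. The study calls them biological replicates. Per the submitters' processing notes, the tools were fastp 0.17.1, HISAT2 2.1.0, DESeq2 1.18.1 and R 3.4.3. How reads were counted, with which strand setting and on which build was not given in the sources used here. The 6 members' coordinates in the deposited table equal those of GENCODE M21 (GRCm38).

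The deposited counts per gene were the input of every test. The deposited signal columns are counts that the authors divided by 1 size factor per library. They were checked and not used. Columns with the authors' own fold changes and p-values were not used.

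Counts were fitted in R 4.3.3 with edgeR 4.0.16 (filterByExpr with a minimum count of 10, TMM, robust quasi-likelihood F-test, group only). Adjustment over 16287 genes was by Benjamini-Hochberg, with calls at an adjusted p under 0.05. The scripts were tested on simulated data. Intervals are exact 95% binomial intervals, a count of 0 was taken to allow 3 counts, and both cover counting error only, since reads carried no molecular identifiers. Alternatives were DESeq2 1.42.0, limma-voom (limma 3.58.1), other scalings and filters, thinned counts, a replicate block, removal of each library's GC trend, no X or Y genes, and leaving out each library. Lengths of the longest coding transcript were chosen after seeing the data.

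The members and lists were chosen with earlier results of these data known. Named are the members, check genes, all called list genes, Plg, the most abundant gene of each role, the 5 genes most like Plau among those with a mean log2 CPM of at least 3, the nearest tested models beside Plau and overlapping models. Cd274, Fpr2 and S100a10, the fibrinogen genes, the markers and the gene above Plau in rank were added after their values were seen. A gene that the rule also selects is not reported here.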

Additional observations from a re-analysis of the deposited data

How the results depend on the processing

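The members kept the sign of their log2 fold change in each of the 18 settings in which they were fitted (the filter at 1 CPM left out Plat and Serpinb2), and Plau stayed between 1.54 and 1.61. It was 1.54 with upper-quartile scaling, 1.61 with total-count scaling, 1.61 without a filter on low counts, 1.55 with the GC trend removed, 1.55 with the GC trend removed and the replicate block, and 1.56 to 1.59 when 1 library was left out. The count of members called, which the choice of members sets and which supports nothing, was 1 except for 0 with the replicate block and without GIT1 CWT replicate 3, and 2 with the GC trend removed (Plau and Plgrkt) and without GIT1 CWT replicate 1 (Plau and Serpinb2). The count of genes called moved far more. With DESeq2 660 were higher and 448 lower, and with the GC trend removed 431 were higher and 364 lower. Leaving out 1 library gave 0 to 853 higher and 1 to 306 lower, with 853 and 306 without GIT1 CWT replicate 1, 259 and 141 without GIT1 CWT replicate 2, 1 and 2 without GIT1 CKO replicate 1, 0 and 1 without GIT1 CWT replicate 3, and 2 and 2 without GIT1 CKO replicate 2. Without GIT1 CKO replicate 3, 12 were lower. Of the pathway list, DESeq2 called 2 higher and 1 lower, removal of the GC trend 6 higher, and leaving out 1 library 0 to 2 higher. Of the 12 factors, RLE scaling called 1 higher, upper-quartile scaling 0 and removal of the GC trend 4, and leaving out 1 library called 0 to 3. Whether the replicate numbers pair the samples is not known. The deviations of samples with the same number correlated at -0.095, -0.00458 and 0.0698 over 9134 genes, and those with different numbers at -0.104 to 0.121. With 3 libraries per group, these correlations cannot decide whether the samples were paired. A replicate block called 0 genes higher and 1 lower, with 0 of the pathway list and 0 factors higher, and 32 higher and 19 lower with the GC trend removed as well, with 0 factors. The causes were not tested. Plat had only 5 to 36 counts per library. Serpinb2 had 8 to 162, and with counts thinned to the smallest library its log2 fold change was 1.57.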
